A study of Homo sapiens with 16 samples.

Results

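The expression of 29 genes of cholesterol and fatty acid synthesis was followed after HGF in cells expressing wt MET and in cells expressing MET∆14. The members were chosen by symbol from the 42351 genes of the counts table and comprised 7 genes of the mevalonate pathway, 11 of the route through squalene to cholesterol, 4 regulators and carriers, and 7 of fatty acid synthesis. HGF is the ligand of the receptor tyrosine kinase MET, and MET∆14 lacks the juxtamembrane domain encoded by exon 14. Polyadenylated RNA was sequenced at 0, 3, 6 and 12 h of HGF in 2 replicates per condition, which gave 16 libraries. The labels give A549, a lung cancer line, for wt MET and NCI-H596, a lung adenosquamous carcinoma line, for MET∆14, whereas the text of the study abbreviates another lung line as WT. Each MET status was therefore represented by a single cell line, and line and MET status cannot be told apart. By the labels, all cells went without serum for 12 h before HGF. The methods text gives a longer period. No library without HGF was taken at 3, 6 or 12 h, so time in serum-free medium and HGF cannot be told apart. The HGF dose of these libraries is not in the labels.

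Cells make cholesterol from acetyl-CoA through mevalonate, the isoprenoid units, squalene and lanosterol, and they make fatty acids from malonyl-CoA through fatty acid synthase followed by desaturases and elongases. Most of these genes are targets of the sterol regulatory element-binding proteins (SREBPs), transcription factors that are held in the endoplasmic reticulum by INSIG proteins when sterols are plentiful and are cut and released when sterols run low. SREBF1 is best known for driving fatty acid synthesis and SREBF2 for cholesterol synthesis, and growth factor signalling through PI3K and AKT is known to favour SREBP activity.

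Total counts ranged from 13226488 to 21970052 per library with wt MET and from 10158590 to 23909304 with MET∆14. All 29 members passed the filter on low counts, as did 15067 genes in all, and the lowest count of a member in any library was 31, for FADS2. The lines matched their labels on markers: CDKN2A, which A549 is known to have lost, had 0 counts in all wt MET libraries and 1466 to 3464 counts in MET∆14 libraries, and the squamous keratin KRT5 was at or below 0.242 CPM (counts scaled to the TMM-adjusted library total) with wt MET and at 1743 to 2461 CPM with MET∆14. Epithelial markers summed to 1737 to 2518 CPM with wt MET and to 2016 to 3227 CPM with MET∆14. The 12 h MET∆14 replicates stood apart from each other, with a chi-square per degree of freedom of 34.5 against 2.79 to 9.95 in the other conditions. By correlation of log2 CPM over the tested genes, 15 of the 16 libraries were closest to their own condition. The exception was MET∆14 replicate 2 at 12 h, which correlated best with a library of another condition. Among members the replicates differed most at 0 h of wt MET and at 12 h of MET∆14, with median absolute log2 ratios of 0.218 and 0.182 against 0.0781 to 0.119 elsewhere.

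The promoters of 25 members were found in the RefSeq table of GRCh38.p14, and those of ACAT2, FASN, FDFT1 and SQLE were not. In the 250 bases before the start, the sterol regulatory element motif TCACNCCAC was found in 1 member (4.0%), SREBF2, and in 0.875% of the 27305 promoters of the table. The E-box CACGTG was found in 2 members (8.0%), INSIG1 and SC5D, against 6.49% of all promoters. The CCAAT box was found in 17 members (68.0%, all promoters 33.0%) and the GC box GGGCGG in 23 (92.0%, all promoters 42.3%). All promoters include those of genes that did not pass the filter on low counts, whereas every member passed it. These shares were not tested. Both strands were searched for each motif, no match shown here shares bases with a match of another motif, and a match describes the sequence only. Sequence upstream of 4 members is shown, since HMGCS1, INSIG1 and STARD4 had the largest rises after HGF and SREBF2 held the sterol element. Capitals mark TCACNCCAC and CCAAT, the latter written ATTGG where it lies on the other strand, and each sequence is written 5′ to 3′ on the strand of its gene. The stretches are chr5:43313513-43313662 (minus strand) for HMGCS1, chr7:155297628-155297775 (plus strand) for INSIG1, chr22:41832855-41833104 (plus strand) for SREBF2 and chr5:111512591-111512785 (minus strand) for STARD4, and each ends at the base before the gene annotated in GENCODE v44. The E-box of INSIG1, 55 to 50 bases before the RefSeq start, lies beyond the stretch shown. A further CCAAT box of HMGCS1, 100 to 96 bases before the RefSeq start, also lies beyond its stretch.
HMGCS1: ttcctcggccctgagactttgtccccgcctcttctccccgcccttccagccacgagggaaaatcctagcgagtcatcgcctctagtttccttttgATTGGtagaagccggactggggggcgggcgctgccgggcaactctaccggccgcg
INSIG1: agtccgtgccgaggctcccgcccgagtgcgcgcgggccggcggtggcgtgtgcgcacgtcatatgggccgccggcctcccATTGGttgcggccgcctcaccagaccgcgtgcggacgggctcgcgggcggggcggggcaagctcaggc
SREBF2: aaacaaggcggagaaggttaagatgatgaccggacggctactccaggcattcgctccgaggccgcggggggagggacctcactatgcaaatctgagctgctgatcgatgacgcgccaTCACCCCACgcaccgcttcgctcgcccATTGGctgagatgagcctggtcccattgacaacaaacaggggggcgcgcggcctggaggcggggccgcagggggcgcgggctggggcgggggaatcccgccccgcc
STARD4: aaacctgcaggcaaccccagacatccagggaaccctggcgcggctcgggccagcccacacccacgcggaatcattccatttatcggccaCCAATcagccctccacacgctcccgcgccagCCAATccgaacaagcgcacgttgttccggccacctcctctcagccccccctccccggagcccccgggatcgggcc

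Before HGF, most of these genes stood higher in MET∆14 cells. At 0 h, 23 of 29 members were higher in MET∆14 and 4 were lower (quasi-likelihood test of edgeR, p-values adjusted by Benjamini-Hochberg over 15067 genes, threshold 0.05), where 80.2% of all tested genes were called, 40.6% as higher and 39.6% as lower. All adjusted p-values given here are from this test. The median log2 difference of the members was 2.17, against 0.02 over all tested genes. Each library is a bulk culture of a single line, so that a difference in all cells and a difference in some of them cannot be told apart.

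The largest differences were in STARD4 (4.63 ± 0.12, SE, adjusted p = 7.36e-14), a cytosolic sterol carrier, and in SCD (4.29 ± 0.14, SE, adjusted p = 4.73e-13), the desaturase that makes oleic acid. MVD, the decarboxylase that closes the mevalonate pathway, differed by 4.22 on the log2 scale and DHCR7, a sterol reductase, by 3.82. The 2 polyunsaturated fatty acid desaturases went the other way: FADS1 was lower in MET∆14 by a log2 difference of -1.88 ± 0.11 (SE, adjusted p = 3.71e-10) and FADS2 by -2.20 ± 0.15 (SE, adjusted p = 1.96e-09). HMGCS1, the cytosolic synthase of HMG-CoA, and ACLY, which makes cytosolic acetyl-CoA from citrate, were lower too, with log2 differences of -0.39 and -0.34. The HMGCS1 call was lost without wt MET replicate 2 at 0 h (log2 value -0.11, adjusted p = 0.389) or MET∆14 replicate 2 at 0 h (log2 value -0.34, adjusted p = 0.0796), and the difference was -0.60 without replicate 1 of wt MET. The ACLY call was lost without wt MET replicate 1 at 0 h (log2 value -0.24, adjusted p = 0.0741). HSD17B7, with the smallest called rise (0.29), lost its call without either wt MET replicate at 0 h or MET∆14 replicate 1 at 0 h (log2 value 0.17 to 0.32, adjusted p up to 0.309). CYP51A1, the demethylase of lanosterol, and ACACA, the carboxylase that makes malonyl-CoA, were not called, at log2 differences of 0.01 ± 0.08 and 0.02 ± 0.13 (SE), and their replicates overlapped between the lines.

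Levels of different genes were compared per kilobase of annotated exon. With MET∆14 at 0 h, SCD led with 722 ± 58.4 CPM per kb (SD, n = 2), followed by FASN with 106 ± 4.05 and FDPS with 101 ± 6.84, whose replicates overlapped. FADS2 was lowest with 0.537 ± 0.0798 CPM per kb. With wt MET the order was different. HMGCS1 led with 81.3 ± 18.4 CPM per kb, followed by ACLY with 49.0 ± 4.66 and SCD with 36.8 ± 8.21, none of which overlapped its neighbour in the order, and STARD4 was lowest with 0.737 ± 0.128. From FASN down to ACACA, 10 wt MET genes in a row lay so close that each but the last overlapped the next in its replicates. SCD alone took 34.7% to 45.0% of the members' summed CPM in each MET∆14 library and 5.65% to 10.7% in each wt MET library.

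**Figure D1:**
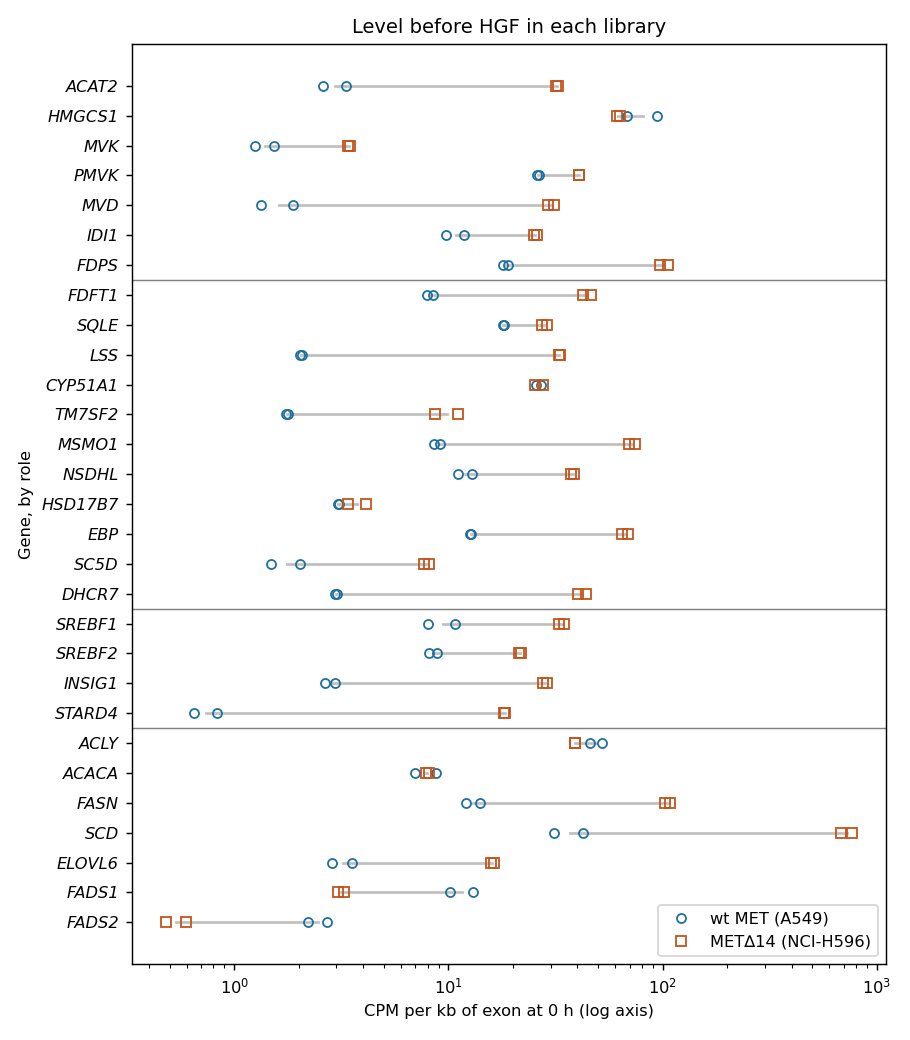
Level of each of the 29 genes before HGF, in CPM per kb of exon on a log axis, with 1 point per library (2 per line, circles wt MET, squares MET∆14), a grey line between the means of the lines, and genes grouped by role. The squares lie to the right for most genes, while FADS1, FADS2, HMGCS1 and ACLY have their squares to the left and CYP51A1 and ACACA overlap.

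HGF was followed by changes in both directions within the same pathway. With wt MET at 3 h, 8 members were called, among them 3 higher (10.3% of all genes were higher) and 5 lower (7.16%), where 17.4% of all genes were called in either direction. At 6 h 17 were called (34.2% of all genes), of which 6 were higher (16.4%) and 11 lower (17.8%), and at 12 h 10 (35.1%), of which 1 was higher (16.9%) and 9 lower (18.2%). With MET∆14 at 3 h, 8 were called (31.7% of all genes), of which 4 were higher (15.5%) and 4 lower (16.1%). At 6 h 13 were called (44.1%), with 6 higher (21.6%) and 7 lower (22.5%), and at 12 h 10 (38.3%), with 3 higher (18.3%) and 7 lower (20.1%). The share of members called was above that of all genes with wt MET at 3 h (27.6%) and 6 h (58.6%), and in the other 4 comparisons, at 27.6% to 44.8%, it lay near or below it. The members' median log2 fold change lay between -0.19 and 0.04 in the 6 comparisons, and that of all tested genes was -0.05 at the lowest. The 3 comparisons of a line share its 0 h libraries. An F test over the 3 times called 17 members with wt MET (40.3% of all genes) and 16 with MET∆14 (54.1% of all genes). MVD, FDFT1 (squalene synthase), EBP (a sterol isomerase), DHCR7 and ACACA were called at no single time in either line.

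Of the 66 calls against 0 h, 28 held in all 22 refits under other settings or without 1 library, and 38 were lost in at least 1. The count of lower members with wt MET at 3 h fell from 5 to 1 without wt MET replicate 1 at 0 h or at 3 h or to 3 without wt MET replicate 2 at 3 h, and rose to 11 without MET∆14 replicate 1 at 12 h. At 6 h with wt MET, the 11 lower members became 4 to 7 without any single wt MET library, and the 6 higher became 3 without replicate 2 of 6 h. The single higher member of 12 h became 2 or 3 without either 0 h library of wt MET or either 12 h library of MET∆14. With MET∆14 at 6 h, the 6 higher members became 2 or 3 without any single library of 0 h or 6 h, and the 7 lower members became 4 without replicate 1 of 0 h, 3 without replicate 2 of 6 h and 11 or 12 without replicate 1 or 2 of 12 h. The 4 lower members of 3 h became 7 without either 12 h library, and the 7 lower members of 12 h became 4 without either 0 h library.

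**Figure D2:**
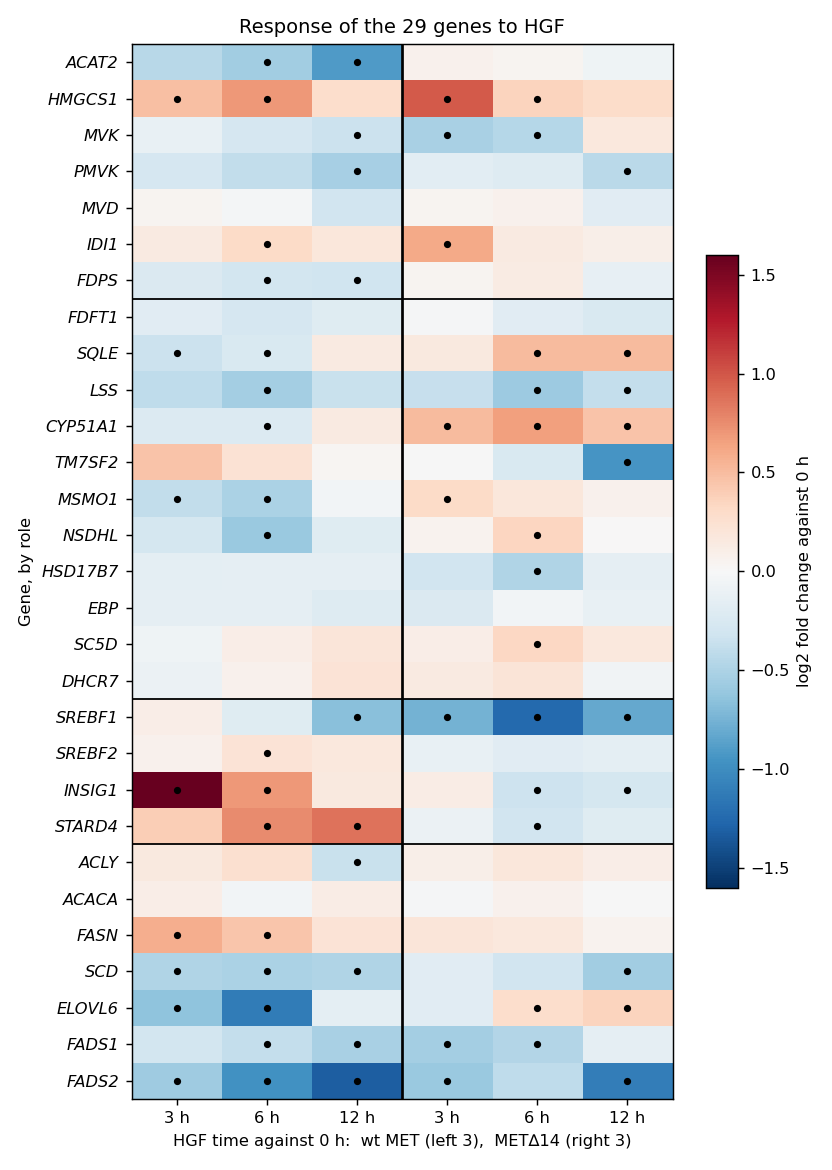
Log2 fold change of each of the 29 genes against 0 h of the same line (colour, red higher and blue lower), with wt MET in the 3 columns on the left and MET∆14 in the 3 on the right; black dots mark an adjusted p below 0.05 and lines separate mevalonate, sterol, regulator and fatty acid genes. INSIG1 with wt MET at 3 h is the darkest red cell at 1.59, and SQLE, CYP51A1, NSDHL, INSIG1, STARD4 and ELOVL6 carry dots of opposite colour at 6 h in the 2 lines.

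Among the regulators, INSIG1, which retains SREBPs in the endoplasmic reticulum and is itself an SREBP target, had the largest single change. With wt MET, INSIG1 stood at 9.69 and 10.8 CPM at 0 h, 29.8 and 32.2 at 3 h, 16.6 and 16.8 at 6 h and 11.2 and 11.7 at 12 h. Both 3 h libraries lay far above every other wt MET library, both 6 h libraries lay in between, and by 12 h the level was close to that at 0 h. The log2 fold change was 1.59 ± 0.12 (SE, adjusted p = 3.88e-07) at 3 h. It was 0.70 ± 0.12 (SE, adjusted p = 0.000559) at 6 h and 0.16 ± 0.13 (SE, adjusted p = 0.376) at 12 h. The 3 and 6 h calls held in all refits. With MET∆14, INSIG1 stood at 105 and 101 CPM at 0 h, 105 and 118 at 3 h, 80.6 and 82.6 at 6 h and 76.4 and 93.4 at 12 h. The 3 h libraries lay at or above those of 0 h, and all 6 h and 12 h libraries lay below them. Against 0 h, the log2 fold change was 0.12 ± 0.10 (SE, adjusted p = 0.384) at 3 h. It was -0.33 ± 0.10 (SE, adjusted p = 0.011) at 6 h and -0.28 ± 0.10 (SE, adjusted p = 0.032) at 12 h. The 6 h call was lost without replicate 1 at 0 h (log2 value -0.32, adjusted p = 0.0728), replicate 1 at 6 h (log2 value -0.32, adjusted p = 0.067) or replicate 2 at 6 h (log2 value -0.36, adjusted p = 0.0506) and with each line fitted alone, and the 12 h call in 6 of the 16 refits that left out 1 library (log2 value -0.31 to -0.14, adjusted p up to 0.234). The 12 h call was also lost with DESeq2, with its size factors, with no filter on low counts and with each line fitted alone, which made 10 of 22 refits. INSIG1 lies at chr7:155297776-155310235 (hg38, plus strand).

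SREBF1, which encodes SREBP1, fell with MET∆14. With MET∆14, SREBF1 stood at 285 and 271 CPM at 0 h, 162 and 167 at 3 h, 113 and 121 at 6 h and 170.2 and 143 at 12 h. All later libraries were below both 0 h libraries, and the lowest were those of 6 h. SREBF1 fell by 0.76 ± 0.12 (SE, adjusted p = 0.000155) at 3 h on the log2 scale, by 1.25 ± 0.12 (SE, adjusted p = 8.74e-07) at 6 h and by 0.82 ± 0.12 (SE, adjusted p = 6.82e-05) at 12 h, and these 3 calls held in all refits. With wt MET, SREBF1 stood at 88.8 and 66.2 CPM at 0 h, 87.3 and 78.9 at 3 h, 64.4 and 71.3 at 6 h and 47.9 and 49.8 at 12 h. The libraries of 3 h and of 6 h each overlapped those of 0 h, and both 12 h libraries lay below all others. On the log2 scale, the change was 0.10 ± 0.12 (SE) at 3 h and -0.19 ± 0.12 at 6 h, neither called, and -0.67 ± 0.12 (SE, adjusted p = 0.000763) at 12 h. Without wt MET replicate 1 at 0 h, the 12 h fall was smaller but still called (log2 value -0.44, adjusted p = 0.016).

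STARD4 rose with wt MET from a low level. With wt MET, STARD4 stood at 4.70 and 3.68 CPM at 0 h, 5.14 and 5.90 at 3 h, 6.72 and 7.47 at 6 h and 7.96 and 7.27 at 12 h. The 6 h and 12 h libraries all lay above both 0 h libraries, and the log2 fold change was 0.39 ± 0.16 (SE, adjusted p = 0.11) at 3 h. It was 0.76 ± 0.15 (SE, adjusted p = 0.00102) at 6 h and 0.87 ± 0.14 (SE, adjusted p = 0.000297) at 12 h. The 6 and 12 h calls held in all refits. With MET∆14, STARD4 stood at 104 and 103 CPM at 0 h, 98.1 and 97.0 at 3 h, 86.4 and 82.3 at 6 h and 95.1 and 86.5 at 12 h. All libraries of 3, 6 and 12 h lay below those of 0 h, and only the fall at 6 h was called, by 0.30 ± 0.09 (SE, adjusted p = 0.0115). That call was lost without MET∆14 replicate 1 at 0 h (log2 value -0.31, adjusted p = 0.0547) or replicate 2 at 6 h (log2 value -0.27, adjusted p = 0.086).

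SREBF2, which encodes SREBP2, had small changes. SREBF2 with wt MET stood at 71.4 and 65.2 CPM at 0 h, 72.0 and 71.7 at 3 h, 77.0 and 82.4 at 6 h and 73.7 and 79.5 at 12 h. SREBF2 with MET∆14 stood at 175 and 171 CPM at 0 h, 163 and 157 at 3 h, 151 and 154 at 6 h and 159 and 151 at 12 h. The later wt MET libraries lay above those of 0 h and the later MET∆14 libraries below them. The log2 fold change at 6 h was 0.22 ± 0.08 (SE, adjusted p = 0.039) with wt MET and -0.18 ± 0.08 (SE, adjusted p = 0.0594) with MET∆14, the latter not called. The wt MET call was lost without replicate 2 at 0 h (log2 value 0.18, adjusted p = 0.146), without replicate 2 at 6 h (log2 value 0.19, adjusted p = 0.188), with no filter on low counts and with the replicate block.

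**Figure D3:**
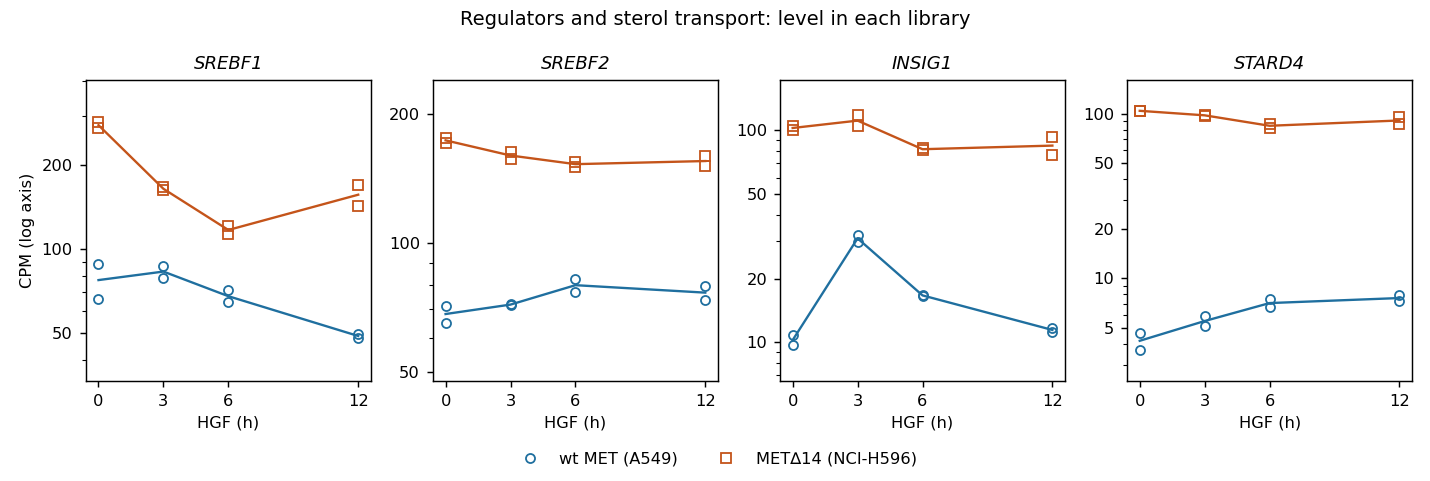
CPM of SREBF1, SREBF2, INSIG1 and STARD4 (log axis, 1 panel per gene) against hours of HGF, with 1 point per library and lines through the means of 2 replicates; circles are wt MET and squares MET∆14. INSIG1 has its peak at 3 h with wt MET, SREBF1 its lowest point at 6 h with MET∆14, and STARD4 climbs with wt MET from 3.68 and 4.70 CPM at 0 h.

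In the mevalonate pathway, HMGCS1 rose in both lines. HMGCS1 with wt MET stood at 453 and 625 CPM at 0 h, 727 and 784 at 3 h, 893 and 857 at 6 h and 675 and 632 at 12 h. The 0 h replicates differed widely, and all later libraries lay above both. With MET∆14, HMGCS1 stood at 419 and 405 CPM at 0 h, 797 and 827 at 3 h, 566 and 491 at 6 h and 535 and 470.0 at 12 h, with the 3 h libraries above all others and the 6 and 12 h libraries still above 0 h. The log2 fold change with MET∆14 was 0.98 ± 0.13 (SE, adjusted p = 3.38e-05) at 3 h. It was 0.36 ± 0.13 (SE, adjusted p = 0.0322) at 6 h and 0.29 ± 0.13 (SE, adjusted p = 0.0887) at 12 h. The 3 h call held in all refits and the 6 h call was lost in 8 of the 16 refits that left out 1 library (log2 value 0.25 to 0.37, adjusted p up to 0.253). With wt MET the log2 fold change was 0.49 ± 0.13 (SE, adjusted p = 0.0151) at 3 h. It was 0.70 ± 0.13 (SE, adjusted p = 0.000676) at 6 h and 0.28 ± 0.13 (SE, adjusted p = 0.104) at 12 h. The 6 h call held in all refits. The 3 h value was 0.77 without wt MET replicate 2 at 0 h, and its call was lost without wt MET replicate 1 at 0 h (log2 value 0.27, adjusted p = 0.171) or replicate 2 at 3 h (log2 value 0.45, adjusted p = 0.109). An opposite-strand gene that is not in the table covers 37.7% of the HMGCS1 exons, and the use of strand in counting is not given in the sources used here.

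IDI1, the isomerase that interconverts the isoprenoid units, also rose early with MET∆14. IDI1 with MET∆14 stood at 111 and 108 CPM at 0 h, 167 and 164 at 3 h, 127 and 114 at 6 h and 112 and 121 at 12 h. The 3 h libraries lay above all others, and the log2 fold change was 0.60 ± 0.09 (SE, adjusted p = 0.000179) at 3 h, 0.14 at 6 h and 0.10 at 12 h, of which the first was called, and it held in all refits. With wt MET, IDI1 stood at 42.0 and 50.7 CPM at 0 h, 47.9 and 55.0 at 3 h, 57.9 and 57.3 at 6 h and 53.9 and 51.5 at 12 h. The rise at 6 h was 0.31 ± 0.10 (SE, adjusted p = 0.0253) on the log2 scale and was lost without replicate 1 at 0 h (log2 value 0.18, adjusted p = 0.243), replicate 1 at 6 h (log2 value 0.33, adjusted p = 0.0943) or replicate 2 at 6 h (log2 value 0.34, adjusted p = 0.0808), and was 0.48 without replicate 2 at 0 h.

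ACAT2, the cytosolic thiolase that joins acetyl-CoA units at the start of the route, fell with wt MET. ACAT2 with wt MET stood at 6.87 and 8.77 CPM at 0 h, 5.61 and 5.90 at 3 h, 5.87 and 4.71 at 6 h and 3.95 and 4.44 at 12 h. Both 0 h libraries lay above all later ones, and the lowest 2 were those of 12 h. The fitted log2 fold change was -0.45 ± 0.18 (SE) at 3 h, not called, -0.56 ± 0.18 (SE, adjusted p = 0.0243) at 6 h and -0.91 ± 0.18 (SE, adjusted p = 0.00133) at 12 h, and the 12 h call held in all refits. The 6 h call was lost without replicate 2 at 0 h (log2 value -0.35, adjusted p = 0.263) or replicate 2 at 6 h (log2 value -0.39, adjusted p = 0.217). With MET∆14, ACAT2 stood at 83.5 and 85.5 CPM at 0 h, 88.4 and 88.2 at 3 h, 94.4 and 79.6 at 6 h and 72.4 and 88.8 at 12 h, with overlapping libraries at 0, 6 and 12 h and log2 fold changes of -0.07 to 0.06. TCP1 and SOD2 on the other strand overlap 22.2% of the ACAT2 exons together with an unlisted gene and hold more counts in all, 52637 and 21129 against 11739, so that the ACAT2 values are uncertain. Opposite-strand genes also overlap 18.6% of the FDPS exons, and a same-strand gene 36.4% of the EBP exons.

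Of the 4 other genes of the mevalonate pathway, MVK, the kinase of mevalonate, fell with MET∆14 at 3 h by 0.52 ± 0.11 (SE, adjusted p = 0.00222), a call that held in all refits. It fell at 6 h by 0.46 ± 0.11 (SE, adjusted p = 0.00295), a call lost without replicate 2 at 6 h (log2 value -0.38, adjusted p = 0.0517), and stood at 0.17 at 12 h. MVK with MET∆14 ranged from 20.7 to 23.9 CPM at 3 and 6 h and from 30.8 to 35.7 CPM at 0 and 12 h, without overlap. PMVK, the next kinase, fell at 12 h by 0.53 ± 0.15 (SE, adjusted p = 0.0109) with wt MET and by 0.43 ± 0.14 (SE, adjusted p = 0.0247) with MET∆14. The wt MET call was lost without replicate 2 at 0 h (log2 value -0.52, adjusted p = 0.0517) or replicate 1 at 12 h (log2 value -0.50, adjusted p = 0.0846). With MET∆14, the fall was lost without replicate 1 at 12 h (log2 value -0.15, adjusted p = 0.302) or either 0 h library (adjusted p = 0.0985 and 0.0947) and was -0.74 without replicate 2 at 12 h. FDPS, which makes farnesyl diphosphate, fell with wt MET by 0.30 ± 0.10 (SE, adjusted p = 0.0255) at 6 h and 0.32 ± 0.10 (SE, adjusted p = 0.0182) at 12 h. The former call was lost in 8 of the 16 refits that left out 1 library (log2 value -0.34 to -0.23, adjusted p up to 0.208) and the latter without wt MET replicate 2 at 0 h or either wt MET replicate at 12 h (log2 value -0.34 to -0.28, adjusted p up to 0.108). The wt MET call of MVK at 12 h (-0.35) was lost in 11 of the 16 refits that left out 1 library (log2 value -0.41 to -0.19, adjusted p up to 0.352).

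On the route through squalene to cholesterol, several enzymes moved in opposite directions in the 2 lines. CYP51A1 with MET∆14 stood at 115 and 106 CPM at 0 h, 157 and 157 at 3 h, 172 and 177 at 6 h and 145 and 158 at 12 h. Every library after HGF lay above both 0 h libraries. Relative to 0 h, the log2 change was 0.51 ± 0.08 (SE, adjusted p = 0.000107) at 3 h. It was 0.66 ± 0.07 (SE, adjusted p = 5.27e-06) at 6 h and 0.45 ± 0.08 (SE, adjusted p = 0.000262) at 12 h. All 3 calls held in all refits. CYP51A1 with wt MET stood at 112 and 107 CPM at 0 h, 92.7 and 96.3 at 3 h, 96.0 and 92.7 at 6 h and 119 and 124 at 12 h. The 3 and 6 h libraries lay below those of 0 h and the 12 h libraries above them. The fall at 6 h (-0.22 ± 0.08, SE, adjusted p = 0.0374) was lost in 14 of the 16 refits that left out 1 library (log2 value -0.22 to -0.17, adjusted p up to 0.261), and the values at 3 and 12 h were -0.22 ± 0.08 and 0.14 ± 0.08 (SE), neither called. Same-strand genes that are not in the table cover 68.2% of the CYP51A1 exons.

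SQLE, squalene epoxidase, had higher levels after HGF with MET∆14 as well. SQLE with MET∆14 stood at 124 and 117 CPM at 0 h, 128 and 139.7 at 3 h, 164 and 179 at 6 h and 168 and 174 at 12 h. All libraries from 3 h on lay above those of 0 h, and those of 6 and 12 h were highest. The log2 fold change was 0.15 ± 0.08 (SE) at 3 h, not called, 0.51 ± 0.08 (SE, adjusted p = 0.000131) at 6 h and 0.50 ± 0.08 (SE, adjusted p = 0.000211) at 12 h, and both calls held in all refits. SQLE with wt MET stood at 77.2 and 78.0 CPM at 0 h, 57.7 and 64.6 at 3 h, 64.1 and 67.1 at 6 h and 88.0 and 83.4 at 12 h. The 3 and 6 h libraries lay below those of 0 h and the 12 h libraries above them. Against 0 h, the log2 fold change was -0.35 ± 0.09 (SE, adjusted p = 0.0107) at 3 h. It was -0.24 ± 0.08 (SE, adjusted p = 0.0365) at 6 h and 0.14 ± 0.08 (SE) at 12 h. The 3 h call was lost without replicate 2 at 0 h (log2 value -0.31, adjusted p = 0.0643) or replicate 1 at 3 h (log2 value -0.24, adjusted p = 0.187), and the 6 h call in 14 of the 16 refits that left out 1 library (log2 value -0.26 to -0.19, adjusted p up to 0.266).

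NSDHL and MSMO1, which act on the methyl groups of the sterol nucleus after CYP51A1, were lower with wt MET and higher with MET∆14 at the times called against 0 h. NSDHL with wt MET fell at 6 h by 0.60 ± 0.12 (SE, adjusted p = 0.00141), a call that held in all refits, from 22.1 and 25.7 CPM at 0 h to 16.1 and 15.4 CPM. NSDHL with MET∆14 rose from 77.2 and 74.6 CPM to 95.3 and 97.1 CPM at 6 h (0.34 ± 0.10, SE, adjusted p = 0.0126), a call lost without either MET∆14 replicate at 0 h or either MET∆14 replicate at 6 h (log2 value 0.31 to 0.36, adjusted p up to 0.1). MSMO1 with wt MET went from 26.0 and 24.4 CPM at 0 h to 17.0 and 18.6 CPM at 6 h and back to 23.7 and 25.2 CPM at 12 h. Its log2 fold change was -0.50 ± 0.12 (SE, adjusted p = 0.00362) at 6 h, a call lost without replicate 1 at 6 h (log2 value -0.42, adjusted p = 0.0633). It was -0.40 ± 0.12 (SE, adjusted p = 0.028) at 3 h, a call lost in 13 of the 16 refits that left out 1 library (log2 value -0.42 to -0.25, adjusted p up to 0.322). With MET∆14, MSMO1 stood at 211 and 197 CPM at 0 h and at 253 and 251 CPM at 3 h (0.30 ± 0.09, SE, adjusted p = 0.0233), a call lost without either MET∆14 replicate at 0 h or either MET∆14 replicate at 3 h (log2 value 0.26 to 0.35, adjusted p up to 0.167).

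TM7SF2, a sterol reductase, fell late with MET∆14. TM7SF2 with MET∆14 stood at 37.7 and 29.6 CPM at 0 h, 31.8 and 35.1 at 3 h, 30.2 and 26.8 at 6 h and 17.5 and 17.2 at 12 h, and the 12 h libraries lay below all others. The fall at 12 h was 0.95 ± 0.14 (SE, adjusted p = 0.000131) on the log2 scale and held in all refits. TM7SF2 with wt MET stood at 5.93 and 6.08 CPM at 0 h, 9.61 and 6.71 at 3 h, 6.78 and 7.40 at 6 h and 6.34 and 5.85 at 12 h, and no time was called. Without wt MET replicate 2 at 3 h, the 3 h value was called (log2 value 0.70, adjusted p = 0.0362). LSS, which closes the sterol rings to lanosterol, fell at 6 h by 0.54 ± 0.20 (SE, adjusted p = 0.0451) with wt MET and by 0.58 ± 0.14 (SE, adjusted p = 0.0044) with MET∆14. The first was lost in 12 of the 16 refits that left out 1 library (log2 value -0.57 to -0.47, adjusted p up to 0.188) and the second without replicate 2 at 6 h (log2 value -0.44, adjusted p = 0.0632). Its 12 h call with MET∆14 (-0.38) was lost in 11 of the 16 refits that left out 1 library (log2 value -0.40 to -0.14, adjusted p up to 0.291). HSD17B7, a sterol ketoreductase, and SC5D, a sterol desaturase, were called with MET∆14 at 6 h, at -0.49 and 0.34. The former was lost without MET∆14 replicate 1 at 0 h (log2 value -0.35, adjusted p = 0.0816) and the latter without either MET∆14 replicate at 0 h or either MET∆14 replicate at 6 h (log2 value 0.29 to 0.37, adjusted p up to 0.141). A pseudogene of HSD17B7 held 666 counts, 18.2% of the 3665 of HSD17B7, so that reads may have been split between them.

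In fatty acid synthesis, the 3 desaturases had falls called in both lines, while the elongase ELOVL6 fell in 1 line and rose in the other. FADS2, a desaturase of polyunsaturated fatty acids, stood with wt MET at 28.6 and 23.3 CPM at 0 h, 18.7 and 16.3 at 3 h, 13.0 and 13.5 at 6 h and 10.4 and 10.4 at 12 h. The levels at each time lay below all those of the time before, and the log2 fold change was -0.56 ± 0.14 (SE, adjusted p = 0.00994) at 3 h. It was -0.97 ± 0.14 (SE, adjusted p = 8.9e-05) at 6 h and -1.32 ± 0.14 (SE, adjusted p = 9.37e-06) at 12 h. The 6 and 12 h calls held in all refits, and the 3 h call was lost without replicate 1 at 0 h (log2 value -0.41, adjusted p = 0.12) or replicate 2 at 3 h (log2 value -0.45, adjusted p = 0.125). FADS2 with MET∆14 stood at 6.26 and 5.07 CPM at 0 h, 3.50 and 3.91 at 3 h, 4.49 and 4.03 at 6 h and 2.41 and 2.87 at 12 h. All later libraries lay below those of 0 h, and the log2 fold change was -0.59 ± 0.18 (SE, adjusted p = 0.02) at 3 h. It was -0.41 ± 0.17 (SE, adjusted p = 0.0639) at 6 h and -1.11 ± 0.19 (SE, adjusted p = 0.00037) at 12 h. The 12 h call held in all refits, and the 3 h call was lost without MET∆14 replicate 1 at 0 h or either MET∆14 replicate at 3 h (log2 value -0.68 to -0.44, adjusted p up to 0.162).

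FADS1, another desaturase of polyunsaturated fatty acids and the neighbour of FADS2 on chromosome 11, stood with wt MET at 134 and 103 CPM at 0 h, 95.8 and 96.7 at 3 h, 88.5 and 93.8 at 6 h and 78.7 and 86.3 at 12 h. The 12 h libraries lay below the others, and it fell by 0.38 ± 0.11 (SE, adjusted p = 0.0119) at 6 h and 0.52 ± 0.11 (SE, adjusted p = 0.00141) at 12 h. The 6 h call was lost without wt MET replicate 1 at 0 h (log2 value -0.18, adjusted p = 0.21) or replicate 1 at 6 h (log2 value -0.31, adjusted p = 0.116), and the 12 h value was -0.33 without the former. FADS1 with MET∆14 stood at 31.3 and 33.1 CPM at 0 h, 22.8 and 21.6 at 3 h, 21.8 and 24.6 at 6 h and 29.4 and 28.8 at 12 h, with the 3 and 6 h libraries below those of 0 h. With MET∆14 it fell by 0.54 ± 0.12 (SE, adjusted p = 0.00266) at 3 h and 0.47 ± 0.12 (SE, adjusted p = 0.00415) at 6 h, calls that held in all refits, and stood at -0.14 ± 0.12 (SE) at 12 h.

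SCD, the most abundant member with MET∆14, stood there at 4001 and 3568 CPM at 0 h, 3392 and 3311 at 3 h, 3106 and 3018 at 6 h and 2622 and 2503 at 12 h. Each time lay below the time before in both replicates. On the log2 scale, the change was -0.18 ± 0.12 (SE, adjusted p = 0.293) at 3 h. It was -0.31 ± 0.12 (SE, adjusted p = 0.0504) at 6 h and -0.56 ± 0.12 (SE, adjusted p = 0.00182) at 12 h. The 12 h call held in all refits. SCD with wt MET stood at 224 and 163 CPM at 0 h, 140.3 and 137 at 3 h, 132 and 139.9 at 6 h and 139 and 139 at 12 h. All later libraries lay below both 0 h libraries, which differed from each other, and the log2 fold change was -0.48 ± 0.12 (SE, adjusted p = 0.0145) at 3 h. It was -0.51 ± 0.12 (SE, adjusted p = 0.00513) at 6 h and -0.48 ± 0.12 (SE, adjusted p = 0.00754) at 12 h. Without wt MET replicate 1 at 0 h, the 3 values were -0.23, -0.26 and -0.23, none called (adjusted p = 0.216, 0.0967 and 0.144). The 3 h call was also lost without replicate 1 at 3 h (log2 value -0.46, adjusted p = 0.0939) or replicate 2 at 3 h (log2 value -0.44, adjusted p = 0.115), and the 6 h call without replicate 1 at 6 h (log2 value -0.44, adjusted p = 0.0646).

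ELOVL6, which extends palmitic acid, stood with wt MET at 25.8 and 20.9 CPM at 0 h, 14.3 and 15.5 at 3 h, 12.0 and 9.29 at 6 h and 19.2 and 22.7 at 12 h. The 3 and 6 h libraries lay below those of 0 h, and the 12 h libraries overlapped them. The fitted log2 fold change was -0.65 ± 0.13 (SE, adjusted p = 0.00313) at 3 h. It was -1.12 ± 0.13 (SE, adjusted p = 1.88e-05) at 6 h and -0.16 ± 0.12 (SE) at 12 h. The 6 h call held in all refits, and the 3 h call was lost without replicate 1 at 0 h (log2 value -0.49, adjusted p = 0.0527) or replicate 1 at 3 h (log2 value -0.56, adjusted p = 0.0531). ELOVL6 with MET∆14 stood at 119 and 114 CPM at 0 h, 99.4 and 106 at 3 h, 141 and 143 at 6 h and 152 and 147 at 12 h. The 3 h libraries lay below 0 h and those of 6 and 12 h above. The rise was 0.28 ± 0.11 (SE, adjusted p = 0.0397) on the log2 scale at 6 h and 0.36 ± 0.11 (SE, adjusted p = 0.0148) at 12 h. The former call was lost in 8 of the 16 refits that left out 1 library (log2 value 0.25 to 0.30, adjusted p up to 0.19) and the latter without either MET∆14 replicate at 0 h (log2 value 0.33 to 0.38, adjusted p up to 0.0962).

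FASN, fatty acid synthase, rose with wt MET. FASN with wt MET stood at 131 and 112 CPM at 0 h, 193 and 172 at 3 h, 169 and 163 at 6 h and 142 and 142 at 12 h, with all later libraries above those of 0 h. Relative to 0 h, the log2 change was 0.58 ± 0.15 (SE, adjusted p = 0.0136) at 3 h. It was 0.45 ± 0.15 (SE, adjusted p = 0.0297) at 6 h and 0.22 ± 0.15 (SE) at 12 h. The 3 h call was lost without replicate 2 at 0 h (log2 value 0.50, adjusted p = 0.0825) or replicate 1 at 3 h (log2 value 0.52, adjusted p = 0.091), and the 6 h call without wt MET replicate 2 at 0 h or either wt MET replicate at 6 h (log2 value 0.37 to 0.50, adjusted p up to 0.153). FASN with MET∆14 stood at 959 and 1012 CPM at 0 h, 1069.8 and 1179.7 at 3 h, 1129.6 and 1094 at 6 h and 1229 and 812 at 12 h. The 12 h replicates lay on either side of those of 0 h, and no time was called, with log2 fold changes of 0.05 to 0.19. Without replicate 1 at 12 h the 12 h value was called as lower (log2 value -0.28, adjusted p = 0.0178), and without replicate 2 as higher (log2 value 0.31, adjusted p = 0.00645).

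ACACA with wt MET stood at 114 and 90.4 CPM at 0 h, 114 and 106 at 3 h, 101 and 98.3 at 6 h and 111 and 112 at 12 h. ACACA with MET∆14 stood at 106 and 102 CPM at 0 h, 96.5 and 108 at 3 h, 107 and 111 at 6 h and 120.5 and 84.5 at 12 h. With wt MET the libraries of each later time overlapped those of 0 h, as did those of 3 and 12 h with MET∆14. Its log2 fold changes ran from -0.04 to 0.12, none called. Without MET∆14 replicate 1 at 12 h the 12 h value was called (log2 value -0.30, adjusted p = 0.036). ACLY was called at 12 h with wt MET (-0.36 ± 0.10, SE, adjusted p = 0.0114), from 272 and 238 CPM at 0 h to 208.5 and 189 CPM, after 0.15 at 3 h and 0.26 at 6 h. The 6 h value, not called here, was called as higher in 13 of 22 refits, among them DESeq2, its size factors, both filters and each line alone, with log2 values from 0.16 to 0.40 over all refits. The 12 h call of ACLY was lost without replicate 1 at 0 h (log2 value -0.26, adjusted p = 0.123) or replicate 2 at 12 h (log2 value -0.29, adjusted p = 0.107).

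**Figure D4:**
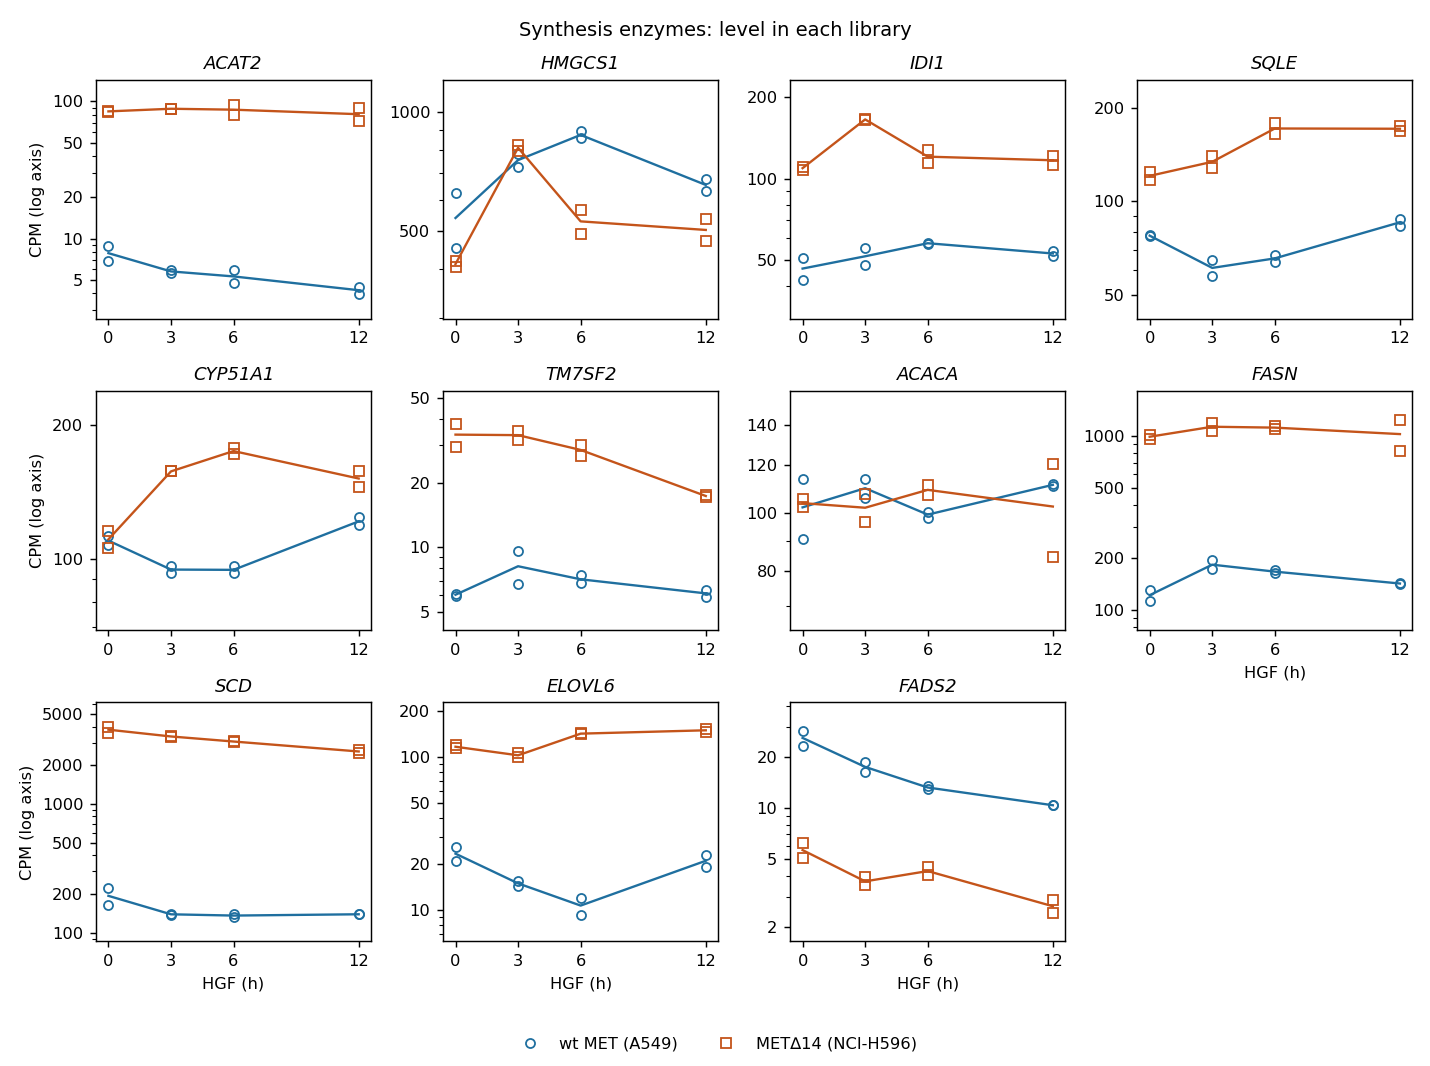
CPM of 11 synthesis enzymes (log axis with its own range in each panel) against hours of HGF, with 1 point per library and lines through the means of 2 replicates; circles are wt MET and squares MET∆14. HMGCS1 peaks at 6 h with wt MET and at 3 h with MET∆14, CYP51A1 starts from overlapping levels and separates, FADS2 falls in both lines, and ACACA stays between 84.5 and 120.5 CPM in both lines.

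Whether the response differed between the lines was tested as the difference of the log2 fold changes, MET∆14 minus wt MET, which shares no library between the 2 sides. At 3 h the response of 6 members differed (17.4% of all genes), 4 with the higher response in MET∆14 (8.93%) and 2 with the lower (8.47%). At 6 h that of 11 differed (30.2%), 7 higher (16.4%) and 4 lower (13.8%). At 12 h that of 9 differed (24%), 6 higher (13%) and 3 lower (11%). Over the 3 times together the response of 16 members differed (37.6%). All 4 regulators and carriers were among the 11 of 6 h, each with the lower response in MET∆14. They started higher in MET∆14 at 0 h, by log2 differences of 4.63 (STARD4), 3.32 (INSIG1), 1.84 (SREBF1) and 1.34 (SREBF2). The test therefore compares ratios taken from unlike starting levels. SREBF1 differed by -0.86 ± 0.17 (SE, adjusted p = 0.0024) at 3 h and -1.05 ± 0.17 (SE, adjusted p = 0.00025) at 6 h, and INSIG1 by -1.47 ± 0.15 (SE, adjusted p = 1.2e-05) at 3 h and -1.03 ± 0.16 (SE, adjusted p = 0.000165) at 6 h. STARD4 differed by -1.06 ± 0.17 (SE, adjusted p = 0.000255) at 6 h and -1.06 ± 0.17 (SE, adjusted p = 0.00037) at 12 h, and SREBF2 by -0.41 ± 0.11 (SE, adjusted p = 0.0102) at 6 h. The other 7 members of 6 h had the higher response in MET∆14, among them ELOVL6 (1.41 ± 0.17, SE, adjusted p = 2.43e-05), NSDHL (0.94 ± 0.16, SE, adjusted p = 0.000349), CYP51A1 (0.88 ± 0.11, SE, adjusted p = 2.36e-05), SQLE (0.75 ± 0.12, SE, adjusted p = 0.000195) and MSMO1 (0.69 ± 0.15, SE, adjusted p = 0.00263). CYP51A1 and MSMO1 differed at 3 h as well, by 0.73 and 0.70, and TM7SF2 at 12 h by -0.97 ± 0.24 (SE, adjusted p = 0.00752). These 15 differences held in all 21 refits run for them.

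The other 11 called differences were lost in at least 1 refit. Those of ACAT2 and FDPS at 6 h (0.60 and 0.43) were lost in 12 and 7 of the 16 refits without 1 library, with adjusted p up to 0.293 and 0.136, and that of IDI1 at 3 h (0.45) in 12, with adjusted p up to 0.216. SQLE differed by 0.50 at 3 h, lost without wt MET replicate 1 at 3 h, MET∆14 replicate 2 at 0 h or MET∆14 replicate 2 at 3 h (log2 value 0.39 to 0.43, adjusted p up to 0.074). At 12 h, the count of 9 fell to 3 to 5 without any single library of 0 h in either line or of 12 h with wt MET. ACAT2 differed there by 0.83, MVK by 0.52, ELOVL6 by 0.52, ACLY by 0.46, SQLE by 0.36, SREBF2 by -0.32 and CYP51A1 by 0.31, with adjusted p up to 0.0797 for ACAT2, 0.157 for MVK, 0.167 for ELOVL6, 0.113 for ACLY, 0.136 for SQLE, 0.164 for SREBF2 and 0.183 for CYP51A1 in the refits without 1 library that lost the call. The SREBF2 call was also lost with no filter on low counts and with the replicate block, with adjusted p up to 0.166. HMGCS1, LSS, FADS2, SCD and FASN were called in this test at no single time, although HMGCS1 was called over the 3 times together (adjusted p = 0.0127). At 3 h, HMGCS1 differed by 0.49 ± 0.18 (SE, adjusted p = 0.075), and at 6 h FADS2 differed by 0.56 ± 0.22 (SE, adjusted p = 0.0701). At 3 h the count of 6 rose to 11 without MET∆14 replicate 1 at 12 h.

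At 6 h, 9 members were called against 0 h in both lines (18.5% of all genes). HMGCS1, LSS and FADS1 went the same way (13.1% of all genes) and SQLE, CYP51A1, NSDHL, INSIG1, STARD4 and ELOVL6 opposite ways (5.32%). The wt MET calls of SQLE and CYP51A1 were each lost in 14 of the 16 refits without 1 library. Those with MET∆14 were lost in 8 for ELOVL6, 4 for NSDHL, 3 for INSIG1 and 2 for STARD4. None of these opposite pairs therefore held in both lines. Among the same-way genes, HMGCS1 was lost in 8 with MET∆14 and FADS1 in 2 with wt MET. LSS was lost in 12 with wt MET and in 1 with MET∆14. At 3 h, 3 members were called in both lines (8.78% of all genes). HMGCS1 and FADS2 went in the same direction (7.03%) and MSMO1 in opposite directions (1.75%). MSMO1 was lost in 13 of the refits without 1 library with wt MET and in 4 with MET∆14. HMGCS1 was lost in 2 with wt MET, and FADS2 in 2 with wt MET and 3 with MET∆14. At 12 h, PMVK, SREBF1, SCD and FADS2 were called in both lines (16.4% of all genes), all 4 lower. PMVK was lost in 2 of the refits without 1 library with wt MET and in 3 with MET∆14, and SCD in 1 with wt MET.

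**Figure D5:**
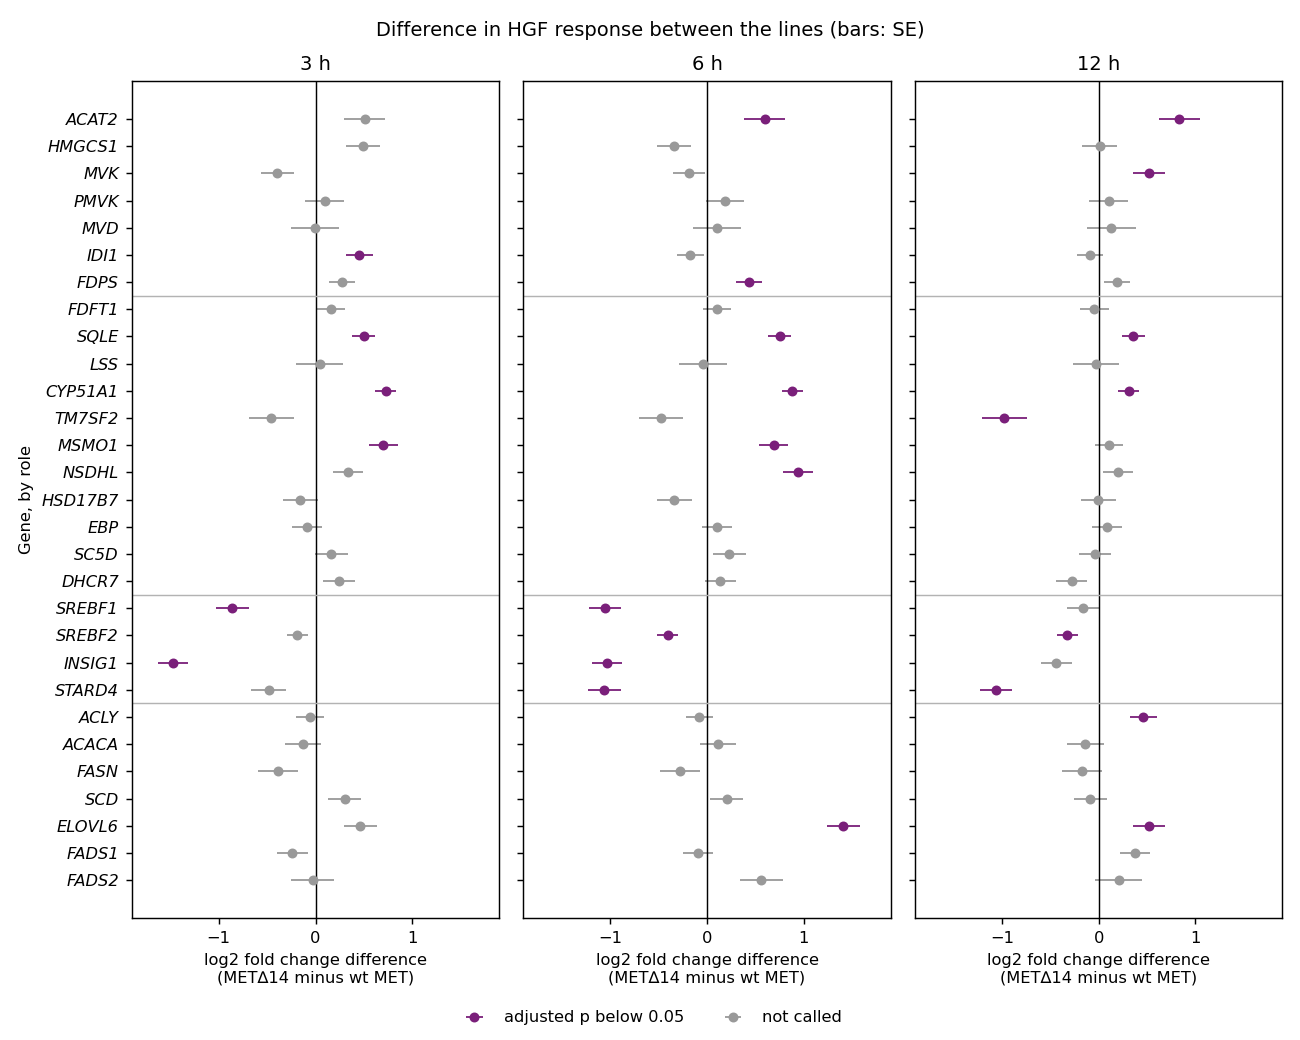
Difference of the log2 fold changes against 0 h, MET∆14 minus wt MET, for the 29 genes at 3, 6 and 12 h, with bars for the SE; purple points have an adjusted p below 0.05 and grey points do not. At 6 h the 4 regulators and carriers lie to the left of 0. ELOVL6, NSDHL, CYP51A1, SQLE, MSMO1, ACAT2 and FDPS lie to the right at that time.

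Comparisons between successive times make no contrast with 0 h, although the 0 h libraries still enter the estimate of the spread. With wt MET from 3 to 6 h, 1 member was called (3.1% of all genes), and it was lower (0 higher, where 1.44% of all genes were higher and 1.66% lower). From 6 to 12 h 9 were called (11.6%), 5 higher (5.59%) and 4 lower (5.98%). With MET∆14 from 3 to 6 h 6 were called (9.77%), 2 higher (4.67%) and 4 lower (5.1%), and from 6 to 12 h 5 were called (18.6%), 2 higher (8.3%) and 3 lower (10.3%). Of these 21 calls, 5 held without each library in turn. INSIG1 with wt MET fell from 3 to 6 h by 0.89 ± 0.11 (SE, adjusted p = 0.000556). From 6 to 12 h with wt MET, ELOVL6 rose by 0.96 ± 0.13 (SE, adjusted p = 0.000277) and ACLY fell by 0.62 ± 0.10 (SE, adjusted p = 0.000988). With MET∆14 over the same interval, MVK rose by 0.63 ± 0.11 (SE, adjusted p = 0.00131) and TM7SF2 fell by 0.71 ± 0.15 (SE, adjusted p = 0.00417). Among the calls that did not hold, SQLE, CYP51A1, MSMO1 and NSDHL all rose from 6 to 12 h with wt MET, by 0.39, 0.36, 0.46 and 0.40, with adjusted p of up to 0.131, 0.112, 0.202 and 0.288 without 1 library. HMGCS1 and IDI1 with MET∆14 fell from 3 to 6 h by 0.62 and 0.46, with adjusted p of up to 0.0994 and 0.103. Without any single library of 6 or 12 h, the 5 members that rose with wt MET from 6 to 12 h became 1 or 2, and without replicate 2 at 6 h or either 12 h library the 4 that fell became 1 or 2. With MET∆14 from 3 to 6 h, the 2 that rose became 0 or 1 and the 4 that fell 0 to 2 without any single library of 3 or 6 h, and the 2 became 4 without replicate 1 at 12 h. From 6 to 12 h, the 2 that rose became 1 without either 6 h library or replicate 1 at 12 h, and the 3 that fell became 1 without either 6 h library and 10 without replicate 2 at 12 h.

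Sums of CPM by role are given as a description and were not tested. The mevalonate genes summed to 708 ± 133 CPM (SD, n = 2) at 0 h with wt MET and to 1031 ± 24.2 at 6 h, and with MET∆14 to 1196 ± 43.1 at 0 h and 1659 ± 73.3 at 3 h, where HMGCS1 is the largest term. The 11 sterol genes, from squalene synthase on, summed to 374 ± 7.83 CPM at 0 h and 319.5 ± 2.41 at 3 h with wt MET, and to 1513 ± 72.2 and 1580.0 ± 74.0 with MET∆14. The regulators and carriers with MET∆14 summed to 658 ± 15.8 CPM at 0 h and 435 ± 7.06 at 6 h. The fatty acid genes with MET∆14, of which SCD is the bulk, summed to 5230.4 ± 274 at 0 h and 4084 ± 426 at 12 h.

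A model with line and time as additive terms, the formula that the study gives for its own DESeq2 fit, was run here in edgeR. Only these libraries entered it. It gives the response shared by the lines and called 10 members for time (30.6% of all genes). From a list of 43 other genes of these pathways (sterol enzymes, lipoprotein receptors and sterol export, SREBP processing, and fatty acid enzymes), all of which were tested, 14 were called with wt MET at 3 h (7 higher, 7 lower, where 17.4% of all genes were called). At 6 h 22 were called (9 and 13, all genes 34.2%) and at 12 h 20 (11 and 9, all genes 35.1%). With MET∆14, 15 were called at 3 h (8 higher, 7 lower, all genes 31.7%), 23 at 6 h (16 and 7, all genes 44.1%) and 20 at 12 h (6 and 14, all genes 38.3%). The response of 24 differed between the lines over the 3 times (37.6% of all genes). The genes named here had the largest changes of the list, and their calls were not refitted. With wt MET, SLC25A1, the mitochondrial citrate carrier, fell by 1.28 ± 0.16 (SE, adjusted p = 3.37e-05) at 12 h and VLDLR, a lipoprotein receptor, by 1.20 ± 0.17 (SE, adjusted p = 8.23e-05) at 6 h. SLC25A1 went from 9.98 and 9.12 CPM at 0 h to 3.72 and 4.17. VLDLR went from 48.0 and 35.2 CPM to 17.4 and 18.8 at 6 h and stood at 30.4 and 32.4 at 12 h. With MET∆14, the sterol exporter ABCG1 fell by 2.38 ± 0.23 (SE, adjusted p = 2.79e-06) at 12 h, ACACB, the mitochondrial acetyl-CoA carboxylase, by 2.05 ± 0.23 (SE, adjusted p = 4.46e-06) at 6 h, and NR1H3, which encodes the sterol-sensing receptor LXR alpha, by 1.45 ± 0.24 (SE, adjusted p = 0.00016) at 6 h.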

How the data were processed

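Polyadenylated RNA of 16 libraries (2 lines, 4 times, 2 replicates) was sequenced after TruSeq preparation. The authors deposited a table of raw counts per gene, in whole numbers, and their processing notes name STAR 2.5.0, RSEM 1.3.2 and hg38. The counting setting, annotation and use of strand are not given in the sources used here. RSEM estimates fractional counts, so that rounding by the authors is possible. The wt MET columns are named H549 where the titles have A549 and were matched by the rest of the name. Replicates are separate samples in the labels, and the study calls its duplicates biological.

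Genes were kept by filterByExpr (minimum count 10, minimum total 15), which left 15067 of 42351, and scaled by TMM. All 16 libraries entered a single fit of edgeR 4.0.16 (quasi-likelihood, limma 3.58.1, R 4.3.3) with 1 mean per line and time and no covariate, and p-values were adjusted by Benjamini-Hochberg over all genes tested, with 0.05 as the threshold for a call. The contrasts were each time against 0 h within a line, successive times, the lines at 0 h, the difference of responses between lines, F tests over the 3 times, and an additive model of line and time. CPM values are TMM-scaled, and fitted fold changes use the default prior count of edgeR. A prior count of 2 was used only for the log2 CPM behind the correlations between libraries and between replicate deviations. Total counts ranged from 10158590 to 23909304. On simulated data with 200 genes changed 2-fold at 3 h with MET∆14 among 14888, that comparison recovered 83% with 15 false calls, and the difference of responses 66.5% with 7. Most called changes of members were smaller than 2-fold, so that these shares do not describe their tests.

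The members and lists were chosen with earlier results of these data known. Values in every library are given for the 10 called members with the largest absolute log2 fold change against 0 h and for 8 fixed regulators and enzymes, which made 15 genes in all. FADS1 was added after its values were seen. Of the other pathway genes, the 3 with the largest change in each line are named, except that 1 gene the rule chose is not reported here. Exon lengths and overlaps are from GENCODE v44 (hg38) and promoters from the RefSeq table of GRCh38.p14. Alternatives were DESeq2 1.42.0, its size factors in edgeR, both extremes of the filter on low counts, a replicate block, each line alone, a minimum absolute log2 fold change of 1, and each library left out in turn. Figures were drawn with matplotlib 3.10.9.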

Additional observations from a re-analysis of the deposited data

Results flagged for a closer look

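The response to HGF differed between the lines, in a test of the difference itself, for 6 members at 3 h (17.4% of all genes), 11 at 6 h (30.2%), 9 at 12 h (24%) and 16 over the 3 times together (37.6%; quasi-likelihood test of edgeR, p-values adjusted by Benjamini-Hochberg). Without each library in turn these counts ranged from 4 to 11, from 9 to 13, from 3 to 12 and from 13 to 19. Among the regulators and carriers the log2 difference, MET∆14 minus wt MET, was -1.47 for INSIG1 at 3 h. At 6 h it was -1.05 for SREBF1, -1.06 for STARD4 and -0.41 for SREBF2.

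Among the enzymes of cholesterol synthesis, the log2 difference was 0.94 for NSDHL, 0.88 for CYP51A1 and 0.75 for SQLE at 6 h, 0.70 for MSMO1 at 3 h and -0.97 for TM7SF2 at 12 h. It was 0.83 for ACAT2 and 0.52 for MVK at 12 h, 0.45 for IDI1 at 3 h and 0.43 for FDPS at 6 h. In fatty acid synthesis it was 1.41 for ELOVL6 at 6 h and 0.46 for ACLY at 12 h. The call was lost without 1 library in 12 of 16 refits for IDI1, 7 for FDPS, 5 for MVK, 4 for ACLY and 2 for ACAT2, and the other 10 differences named here held in every refit.

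Each line stands for 1 MET status, so that line and MET status cannot be told apart in these differences. Groups of 2 libraries are too small for a test of single libraries against their group.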

How the results depend on the processing

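Among the 15 members given in every library, 44 called results were refitted 968 times, 865 of them with the same call, 103 without it and 0 in the other direction. Most of these members were chosen for the largest called changes, and many refits left out a library outside the comparison. Over all members, 38 of 66 calls against 0 h were lost in at least 1 refit. Scaling by DESeq2 size factors moved no count of members by over 1.5 times. With DESeq2, MET∆14 at 12 h had 4 lower members and wt MET from 3 to 6 h 2. With no filter on low counts, wt MET had 2 higher members at 12 h and 2 lower from 3 to 6 h, and 5 responses differed between lines at 12 h. With at least 10 counts in every library, MET∆14 had 4 higher members from 6 to 12 h. With each line fitted alone, wt MET had 8 lower members at 3 h and 2 higher at 12 h, and MET∆14 had 4 lower at 12 h, 1 higher from 3 to 6 h and 1 lower from 6 to 12 h. The cause of these changes was not tested.

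With a minimum absolute log2 fold change of 1, wt MET kept 1 higher and 0 lower members at 3 h, 0 and 1 at 6 h and 0 and 1 at 12 h, MET∆14 0 and 0 at 3 h, 0 and 1 at 6 h and 0 and 1 at 12 h, and the step comparisons 0. At 0 h, 2 members were lower in MET∆14. The difference of responses kept 1 member at 3 h, 4 at 6 h, 1 at 12 h and 4 over all times, and the F tests 3 with wt MET and 2 with MET∆14.

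Without each library in turn, wt MET had 2 to 3 higher and 1 to 11 lower members at 3 h, 3 to 7 and 4 to 13 at 6 h, and 1 to 3 and 6 to 10 at 12 h. MET∆14 had 3 to 5 and 3 to 7 at 3 h, 2 to 9 and 3 to 12 at 6 h, and 2 to 4 and 4 to 9 at 12 h. At 0 h, 22 to 23 were higher and 3 to 4 lower in MET∆14. From 3 to 6 h the ranges were 0 to 0 and 1 to 2 with wt MET and 0 to 4 and 0 to 5 with MET∆14, and from 6 to 12 h 1 to 5 and 1 to 5, and 1 to 3 and 1 to 10. Responses differed for 4 to 11 members at 3 h, 9 to 13 at 6 h, 3 to 12 at 12 h and 13 to 19 over all times. The F tests called 14 to 20 with wt MET, 12 to 24 with MET∆14 and 7 to 11 in the additive model.

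No strong shared effect of replicate number was seen: over 28 pairs of conditions the correlation of deviations ran from -0.159 to 0.111, and 1 was over 0.1. The labels do not say whether replicates were handled in pairs, and these correlations cannot exclude it. With the replicate block, no count of members moved by over 1.5 times, and the responses of 6, 10 and 8 members differed at 3, 6 and 12 h. Low counts limit FADS2 with MET∆14, whose lowest count was 31, and 2 replicates limit every test.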
